A study of Rattus norvegicus with 4 samples.

Results

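The genes that control the passage from G1 to S phase were examined in NR8383 cells, a continuous line of macrophages from the lung lavage of a normal rat. They were the cyclin genes Ccnd1, Ccnd2, Ccnd3 and Ccne1, the kinase genes Cdk2, Cdk4 and Cdk6, the inhibitor gene Cdkn1b, the retinoblastoma gene Rb1 and the transcription factor gene E2f1. These 10 genes were chosen by name, through the RefSeq symbol of the accession that each array probe carries, and all 10 had at least 1 probe, among 16581 named genes in all. The arrays came from a single group of 4 biological replicates, each on 1 array. It consisted of cells at 20 passages given carbon black Printex 90, a powder of carbon nanoparticles, at 0.9 cm2/cm2 for 4 h. The labels name no gene alteration in this line, which grows as a mixture of adherent and floating cells in medium with serum. Cells incubated without particles were not analysed here, so each value below is a level in exposed cells, and no effect of carbon black was computed.

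In the G1 phase, D-type cyclins bind CDK4 or CDK6, and cyclin E binds CDK2. These kinases phosphorylate the RB protein, which otherwise holds E2F factors inactive, and freed E2F then raises genes of DNA synthesis, among them cyclin E and E2F1 itself. The inhibitor p27, encoded by Cdkn1b, blocks the complex of cyclin E and CDK2. Alveolar macrophages in the lung divide rarely, whereas NR8383 cells grow continuously in culture.

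A level is log2 of the processed intensity minus the 75th percentile of the same array over its 45598 probes, so that 0 marks that percentile. The scanner software marked between 37.5% and 40.9% of probes as well above background on the 4 arrays. The lowest spot with that mark had a processed intensity of 22.3, 11.3, 10.8 and 12.1 on replicates 1, 2, 3 and 4, which corresponds to levels of -2.29, -3.05, -2.56 and -2.40. All but the brightest few of the 308 negative control spots lay under 27.1, 7.40, 4.95 and 6.25 on these arrays. On replicate 1 that value was above the lowest marked spot. Probes bind with different strength, so a difference in level between genes was not read as a difference in RNA amount. Of 10 macrophage markers, 8 were well above background on all arrays, among them Cd68, Ptprc and Spi1, whereas Marco and Adgre1 were so on none. None of the 17 markers of T cells, B cells, granulocytes, epithelium, fibroblasts and endothelium reached that mark on any array.

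Of the 10 G1 to S regulators, 9 were well above background on all 4 arrays, against 48.0% of named genes. The exception was Cdk6, which was so on no array, as were 44.0% of named genes.

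Cyclins of both G1 classes were detected. Ccnd1 encodes cyclin D1, the D-type cyclin that growth factors induce in many cells. Its level was 3.72, 3.65, 3.66 and 3.82 on replicates 1 to 4, with a mean of 3.71 ± 0.076 (SD, n = 4). The arrays lay close together, and the highest differed from the lowest by 1.12-fold. Ccnd2, which encodes cyclin D2, had levels of 3.47, 3.46, 3.91 and 3.84, with a mean of 3.67 ± 0.24 (SD, n = 4). Replicates 1 and 2 were nearly equal and lay below replicates 3 and 4, with a 1.36-fold difference between the extremes. Ccnd3, the gene of cyclin D3, had levels of 1.06, 1.35, 1.39 and 1.02, with a mean of 1.21 ± 0.19 (SD, n = 4). Here replicates 1 and 4 were the low pair.

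Ccne1 encodes cyclin E1, the partner of CDK2 at the entry into S phase. Its level was 3.20, 3.39, 3.37 and 3.16, with a mean of 3.28 ± 0.12 (SD, n = 4). It was again lower on replicates 1 and 4 than on the others, by 1.17-fold between the extremes. Cyclin genes of this kind often have GC-rich promoters, which hold GC boxes for the activator SP1. The stretch of the Ccne1 promoter that follows shows the GC boxes GGGCGG in capitals, in the RefSeq sequence of build GRCr8, chr1:99927989-99928049 on the minus strand, from base 140 to base 80 before the annotated start.
Ccne1: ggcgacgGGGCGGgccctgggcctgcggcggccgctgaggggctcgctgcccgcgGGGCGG

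**Figure D1:**
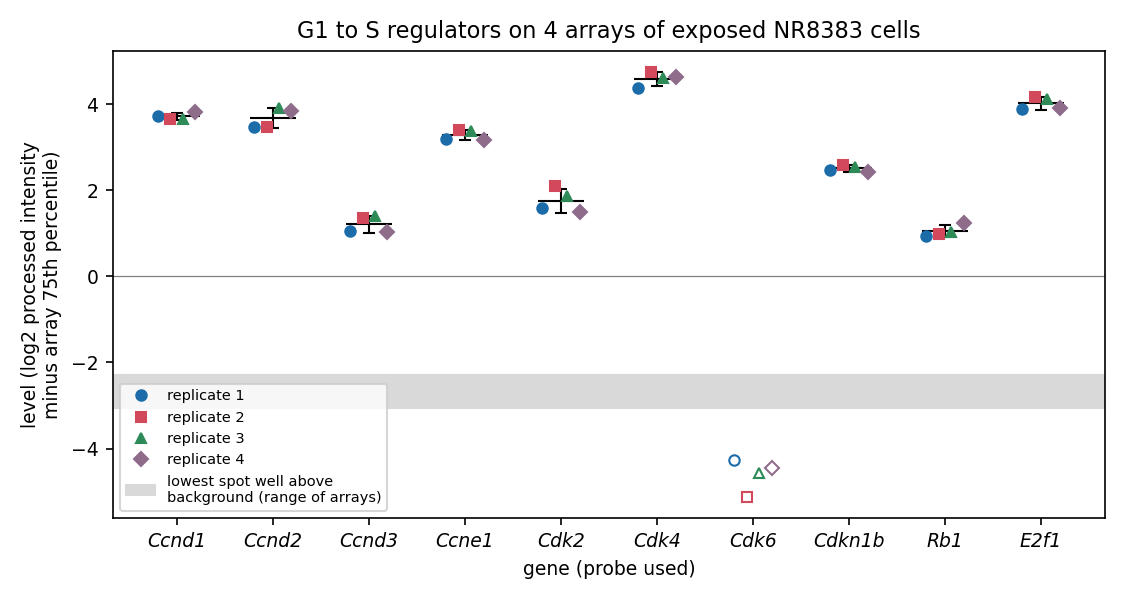
Level of each gene (log2 processed intensity minus the array's 75th percentile) on the 4 arrays. Filled points are well above background, with a line for the mean and a bar for the SD, open points are not, and the grey band is the range over arrays of the lowest spot so marked. The open points of Cdk6 lie below the band on all 4 arrays, while the points of the other 9 genes lie above it.

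The G1 kinases were divided between a detected pair and an undetected member. Cdk4 encodes the kinase that D-type cyclins activate. Its level was 4.37, 4.74, 4.61 and 4.64 on replicates 1 to 4, with a mean of 4.59 ± 0.16 (SD, n = 4). Replicate 1 was the low array, and without it the SD was 0.067. Cdk2, the kinase of cyclin E, had levels of 1.58, 2.10, 1.85 and 1.49, with a mean of 1.76 ± 0.28 (SD, n = 4). Its replicate 2 was 1.52-fold above replicate 4.

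Cdk6 encodes the other kinase of the D-type cyclins. Its processed intensity was 5.64, 2.70, 2.68 and 2.93 on replicates 1 to 4 for the brightest of its 3 probes. These values were between 0.239 and 0.253 of the lowest spot well above background on the same array. The other 2 probes read between 2.47 and 5.42. They target a different RefSeq accession of the gene, so the low reading did not rest on 1 probe. Cdk6 has only a bound, a level under -2.29, -3.05, -2.56 and -2.40 on the 4 arrays, and its values have no order among the arrays.

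The promoters of the detected kinases are shown because both carry GC boxes but only that of Cdk4 holds the E-box CACGTG, an element that MYC with its partner MAX binds. Capitals mark the E-boxes in Cdk4, the CCAAT box in Cdk2, and the GC boxes GGGCGG, on either strand, in both. The Cdk4 stretch is chr7:64771243-64771372 on the plus strand, from base 210 to base 81 before the start, and the Cdk2 stretch is chr7:1721968-1722058 on the minus strand, from base 180 to base 90 before the start, both in the RefSeq sequence of GRCr8.
Cdk4: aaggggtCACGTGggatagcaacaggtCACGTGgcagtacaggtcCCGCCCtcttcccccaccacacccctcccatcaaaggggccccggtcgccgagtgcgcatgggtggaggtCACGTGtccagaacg
Cdk2: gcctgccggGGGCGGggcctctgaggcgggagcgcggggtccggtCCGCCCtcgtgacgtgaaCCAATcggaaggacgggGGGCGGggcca

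RefSeq promoter windows of 300 bases, 250 before and 50 after the start, were matched for 6 of the 10 genes, namely Ccnd3, Ccne1, Cdk2, Cdk4, Cdkn1b and Rb1. The palindrome CACGTG was in 1 of the 6, Cdk4, which held 3 copies, and in 6.42% of all 33469 promoters of that length. The GC box GGGCGG, searched on both strands, was in 6 of the 6 and in 33.1% of all promoters. CCAAT, searched on both strands, was in 3 of the 6 and in 37.5% of all. TATAAA was in none of the 6 and in 14.2% of all. A match describes letters in the sequence and not binding in these cells.

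The inhibitor Cdkn1b was detected together with the kinase that its product p27 blocks. Its level was 2.47, 2.59, 2.55 and 2.41 on replicates 1 to 4, with a mean of 2.51 ± 0.077 (SD, n = 4). The extremes differed by 1.13-fold, and the SD ranged from 0.032 to 0.137 over the alternatives. A second Cdkn1b probe was also well above background on all arrays, with levels of 1.30, 1.15, 1.35 and 1.19.

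Both components of the RB switch were detected. Rb1, whose product restrains E2F, had levels of 0.94, 0.98, 1.03 and 1.25 on replicates 1 to 4, with a mean of 1.05 ± 0.14 (SD, n = 4). Replicate 4 was the high array, and without it the SD was 0.044. Its signal was 9.40 to 16.4 times the lowest spot well above background on the same array. E2f1, the activator that RB binds, had levels of 3.88, 4.17, 4.11 and 3.90, with a mean of 4.02 ± 0.15 (SD, n = 4). Replicates 1 and 4 were nearly equal, and so were the higher replicates 2 and 3.

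Among the 6 promoter windows, only that of Rb1 held an exact match to any of the 4 E2F element forms searched. Other forms of the element were not searched. The 25 bases shown cross its annotated start, from base 10 before it to base 15 after it, at chr15:54911843-54911867 on the minus strand of GRCr8 in the RefSeq sequence, with the element TTTCCCGC in capitals.
Rb1: cggaagtgacgtTTTCCCGCggttg
TTTCCCGC, on either strand, was in 0.974% of all promoters. Any of the 4 forms TTTCCCGC, TTTGGCGC, TTTCGCGC and TTTGCCGC was in 2.14% of them.

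The spread between replicates of these genes was then set against that of genes of like brightness. None of the 9 detected regulators passed the test for a wider spread than the fit gives at their level, in limma's residual variances with a one-sided F test and Benjamini-Hochberg adjustment over 14925 tested genes. Over all of these, 69 passed, or 0.462%. The unadjusted p was under 0.05 for 0 of the 9 and for 5.07% of tested genes. It was under 0.05 for Ccnd2 (0.036) and Cdk2 (0.040) with dim probes left in, and for Cdk2 alone with another background correction (0.026) and without replicate 1 (0.029), in limma's fit. As reported, Cdk2 had the smallest p among the 9 (adjusted p = 0.987, unadjusted p = 0.087), with an SD of 0.28 where the fit gave 0.15 for its level. Ccnd2 came next (adjusted p = 0.987, unadjusted p = 0.103), with an SD of 0.24 against a fitted 0.14. Its SD was 0.12 with another background correction. Cdkn1b and Ccnd1 lay at the other end, with SDs above those of 10.6% and 10.1% of tested genes. For Ccnd1 this place depended on the setting, with an SD of 0.129 with quantile normalization and 0.014 with the mean of a gene's probes. For Cdkn1b the SD was 0.032 to 0.050 with the other scalings, and 0.137 with another background correction. The median SD was 0.148 over the 9 and 0.161 over all tested genes. These 2 medians are not matched for brightness, since the median SD reached 0.49 in the dimmest bin of tested genes. Against the fitted spread at its own level, the SD was lower for 4 of the 9.

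**Figure D2:**
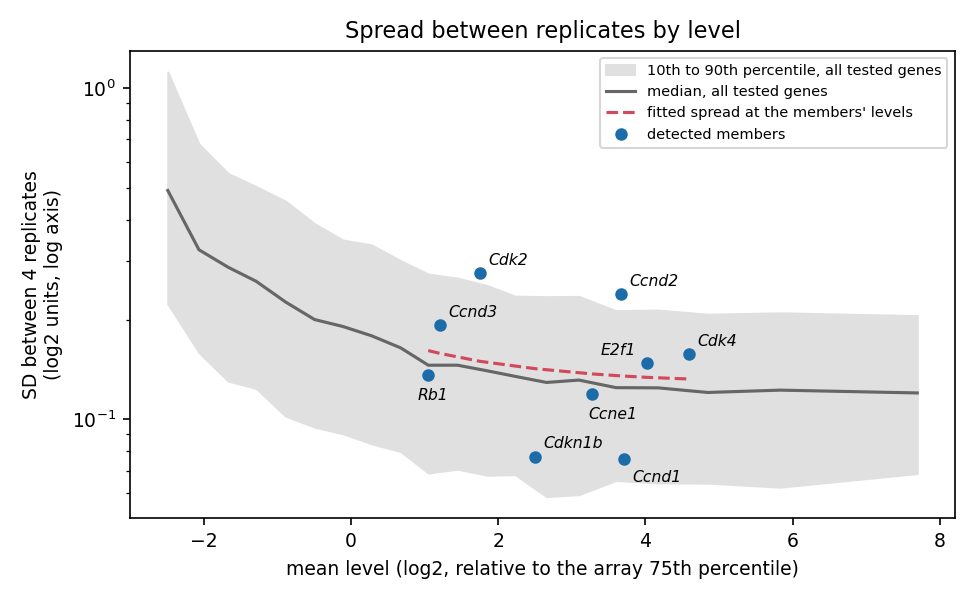
SD between the 4 replicates (log2 units, log axis) against mean level. Points are the 9 detected regulators, the grey line and band are the median and the 10th to 90th percentile of tested genes in bins of level, and the dashed line is the fitted spread. Cdk2 (0.28) and Ccnd2 (0.24) lie above the band, and Ccnd1 (0.076) and Cdkn1b (0.077) near its lower edge.

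Several of the regulators shared one profile over the arrays. Ccnd3, Ccne1, Cdk2, Cdkn1b and E2f1, 5 of the 9, were below their own mean on replicates 1 and 4 and above it on replicates 2 and 3. Of all tested genes, 18.0% had that profile. It was picked out from the values of these same 9 genes, so setting the 2 shares side by side is no test. Cdk4 was low on replicate 1 alone, Rb1 was high on replicate 4 alone, Ccnd1 was above its mean on replicates 1 and 4, and Ccnd2 was above it on replicates 3 and 4. The lowest array was replicate 1 for 3 genes, replicate 2 for 2 and replicate 4 for 4, and the shares of tested genes lowest there were 39.5%, 13.4% and 32.5%. None of the 9 was lowest on replicate 3, against 14.7% of tested genes, although 2 were with another background correction and 1 with the mean of a gene's probes. The median deviation of the 9 was -0.14, 0.11, 0.094 and -0.091 on replicates 1 to 4, and that of all tested genes was -0.045, 0.069, 0.015 and -0.024. The 2 medians had the same sign on each replicate, while single genes did not all follow, with 4 of the 9 above their own mean on replicate 4 and 3 below it on replicate 2. The part of the arrays' scaling in this profile was not tested beyond the alternatives: 4 of the 9 had the profile with quantile normalization, against 10.5% of tested genes, and 3 had it with another background correction, against 6.02%. With the mean of a gene's probes, 4 of the 9 had it, against 17.6% of tested genes. Cdkn1b was the gene lost there and with quantile normalization. Ccnd3, Ccne1 and E2f1 had the profile under every scaling and background correction tried.

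**Figure D3:**
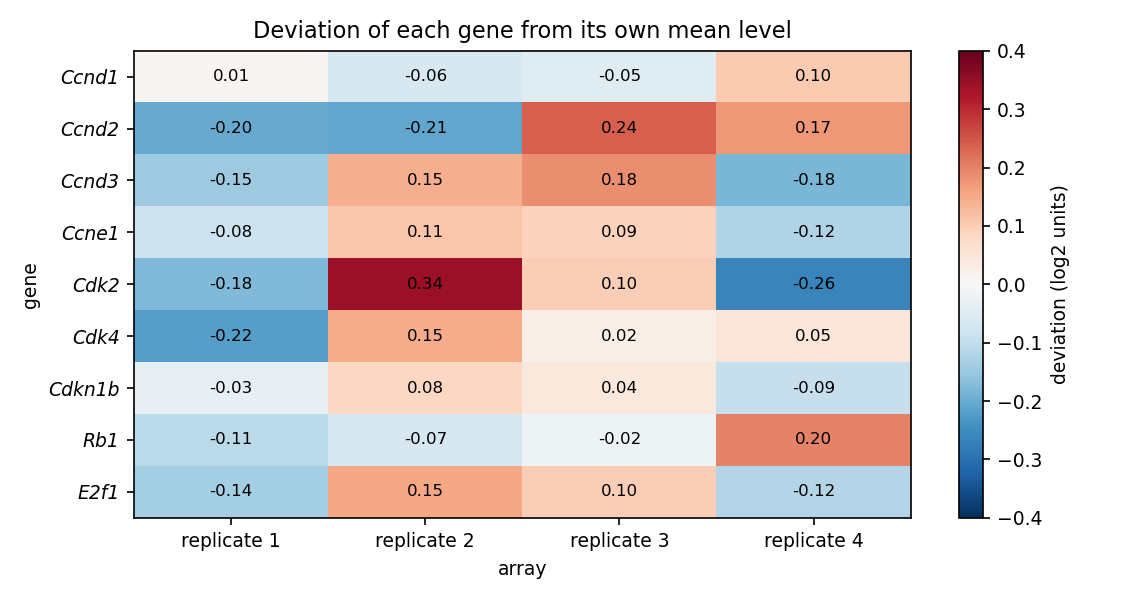
Deviation of each detected regulator from its own mean level (log2 units, colour and printed value) on each array. Ccnd3, Ccne1, Cdk2, Cdkn1b and E2f1 are blue on replicates 1 and 4 and red on replicates 2 and 3, and Cdk2 ranges from -0.26 to 0.34.

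A difference between genes on the same array does not depend on how arrays are scaled to a percentile. Over the 36 pairs of the 9 genes, the SD of that difference over the arrays ranged from 0.040 to 0.414, with a median of 0.190. By the probes used, the steadiest pair was Ccne1 and E2f1. Their difference, Ccne1 minus E2f1, was -0.69, -0.78, -0.74 and -0.74 log2 units on replicates 1 to 4. Of the other tested genes, 1.21% had a difference to E2f1 as steady as that, and 1.77% a difference to Ccne1. The pair of Ccne1 and Cdkn1b followed, with an SD of 0.048, and 5.29% of the other tested genes had a difference to Cdkn1b as steady. The least steady pair was Ccnd2 and Cdk2. Ccnd2 minus Cdk2 was 1.89, 1.36, 2.06 and 2.35, an SD of 0.414. A difference to Ccnd2 as steady as that or steadier was found for 82.6% of the other tested genes. These are descriptions of 4 arrays, with the pairs ranked after their values were seen.

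Second probes limited how far such small deviations can be read. For Ccnd1, the probe used, with 2 spots, was highest on replicate 4 and lowest on replicate 2. The other probe, with 10 spots, was highest on replicate 2 and lowest on replicate 4, at 3.56, 3.64, 3.56 and 3.44 on replicates 1 to 4. Its SD over arrays was 0.081, and the SD between its own 10 spots within an array was 0.053 to 0.078. The difference between the probes, 0.16, 0.013, 0.10 and 0.37, had an SD of 0.154, which is wider than the SD of either probe. For Cdkn1b the probe used was highest on replicate 2, where the other was lowest, and the SD of the difference to Ccne1 was 0.146 with that other probe in place of 0.048. For Ccnd1 with its other probe, the SD of the difference to Cdkn1b was 0.034 in place of 0.152, smaller than that of Ccne1 and E2f1. The remaining 7 detected genes had 1 probe each.

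**Figure D4:**
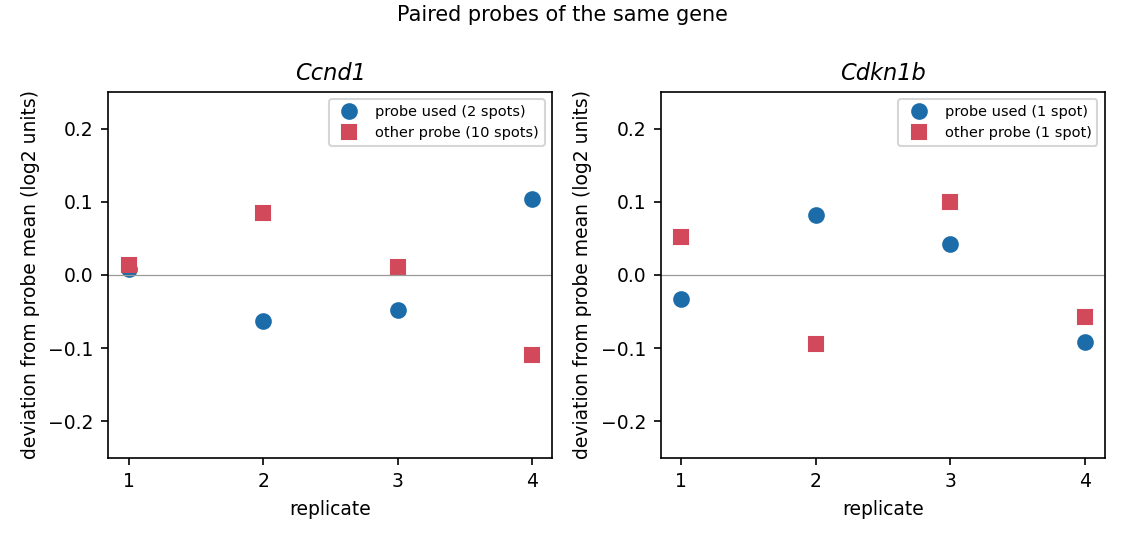
Deviation from the probe's own mean (log2 units) on each replicate for the paired probes of Ccnd1 and of Cdkn1b. The Ccnd1 probes lie on opposite sides of 0 on replicates 2, 3 and 4, and the Cdkn1b probes on replicates 1 and 2.

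Other genes around the switch were mostly detected as well. Of 57 genes in 8 lists, 49 were matched to a probe, of which 42 reached the mark on every array, 4 on part of them and 3 nowhere, against 48.0% of named genes on every array and 44.0% nowhere. None of the 45 tested passed the variance test (limma, adjusted), with 0 at an unadjusted p under 0.05, against 0.462% and 5.07% of all tested genes. Their median SD was 0.133, with a range from 0.057 to 0.694. The widest were Foxo3 (0.69), Foxo1 (0.64) and E2f7 (0.59), each well above background on only part of the arrays.

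Later cyclins and kinase were detected on all arrays, 3 of 3, against 48.0% of named genes. Ccne2, which encodes the second cyclin E, had a level of 0.39 ± 0.14 (SD, n = 4), Ccna2, the S phase cyclin gene, 3.93 ± 0.066, and Cdk1, the mitotic kinase gene, 6.14 ± 0.14. Of the genes that activate CDKs, 4 of 4 matched were detected on all arrays, against the same 48.0% of named genes. They were Ccnh at 1.34 ± 0.15 and Mnat1 at 0.036 ± 0.12, both of the CDK-activating kinase, the phosphatase gene Cdc25a and the chaperone gene Cdc37, while Cdk7 was not matched to a probe.

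Of 6 other CDK inhibitor genes, 4 were detected throughout and 2 on no array, against 48.0% and 44.0% of named genes. Cdkn1a, the gene of p21, had a level of 5.69 ± 0.12 (SD, n = 4) for the brighter of its 2 probes, and the other probe was also well above background, at -1.45, -1.71, -1.16 and -1.23 on replicates 1 to 4. The INK4 genes Cdkn2b, Cdkn2c and Cdkn2d, whose products block CDK4 and CDK6, were the other 3 detected. Cdkn2a, the INK4 gene of p16 that also encodes ARF, and Cdkn1c, the gene of p57, stayed under the mark on every array. The reading of Cdkn2a rests on 1 probe and that of Cdkn1c on 2.

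Of 5 genes of p27 and cyclin E turnover, 4 were detected on all arrays, against 48.0% of named genes. Among them were the cofactor gene Cks1b at 2.76 ± 0.099 (SD, n = 4) and the ligase scaffold gene Cul1 at 3.25 ± 0.10. The others were Skp1 and Fbxw7. Skp2, which encodes the subunit that recognises p27, was well above background on replicate 1 alone. Its single spot had processed intensities of 61.5, 4.44, 2.44 and 2.48 on replicates 1 to 4, and the local background around it was 47 on replicate 1 against 30 to 32 on the others. The part of that background in the signal was not tested.

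Among the relatives of RB, Rbl2, the gene of p130, had a level of 2.11 ± 0.15 (SD, n = 4). Rbl1, the gene of p107, stayed under the mark on every array, a reading that rests on 1 probe. The DREAM complex genes Lin37, Lin54 and Rbbp4 were detected on all arrays, and Lin9 and Lin52 were not matched to a probe. Of 6 matched genes of E2F factors and their partners, 5 were detected on all arrays, against 48.0% of named genes. E2f3, an activator, had a level of -0.68 ± 0.20 (SD, n = 4) and E2f4, which works with p130 in repression, 2.53 ± 0.13. E2f6 and the partner genes Tfdp1 and Tfdp2 were the other 3, the repressor E2f7 was so on 3 arrays, and E2f2, E2f5 and E2f8 were not matched to a probe.

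Classical E2F target genes were detected throughout. Of 15 matched, 15 were well above background on all 4 arrays, as were 48.0% of named genes. Among them were the replication licensing genes Cdc6 at 0.92 ± 0.14 (SD, n = 4), Cdt1 at -0.56 ± 0.24 and Orc1 at -1.79 ± 0.24. These come first in the list as written, and Cdt1 and Orc1 had the lowest readings of the 15. The highest readings were those of Mcm2 at 6.27 ± 0.14, Rrm2 at 6.23 ± 0.13 and Rrm1 at 5.43 ± 0.12. Such an order is one of probe readings and not of RNA amounts. The SDs of the 15 ranged from 0.093 to 0.244. Upstream of cyclin D and p27, the transcription factor gene Myc had levels of 3.46, 3.33, 3.21 and 2.94 on replicates 1 to 4, with a mean of 3.23 ± 0.22 (SD, n = 4), and Jun and Foxo4 were also detected on all arrays. The forkhead genes Foxo1 and Foxo3, whose products can activate Cdkn1b, were well above background on 2 and 3 arrays.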

How the data were processed

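RNA of 4 biological replicates, 100 ng each with an integrity number above 7.5, was hybridised to 1-colour Agilent arrays, per the labels' protocols. The deposited values are spot intensities on a linear scale from Agilent Feature Extraction 11.0.1.1 (per the submitters' processing notes), background-subtracted and detrended within each array but not scaled between arrays, per the file headers. The deposited marks for detection are 0 or 1 per spot. The annotation used for counting is that of the array design. All 4 arrays had 1 scan time, and no non-control spot was saturated.

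From these, log2 intensity was averaged over a probe's spots without those marked non-uniform, and the 75th percentile of each array, taken over probes, was subtracted. A probe counted as detected where 50% or more of its spots carried the mark for signal well above background, and a gene where any of its probes was detected. The probe with the highest mean stood for a gene. Accessions without versions were matched to RefSeq genes of GRCr8, which named 21109 of 45598 probes (46.3%). Promoter sequences came from a RefSeq table of the same build. The 14925 genes detected on 2 or more arrays were fitted with limma 3.58.1 (R 4.3.3), and each residual variance was set against the trended prior of squeezeVar in a one-sided F test with a threshold of 0.05 after Benjamini-Hochberg adjustment. The fit, and so each p, measures only the spread between these 4 samples, and the number of arrays limits its precision. The Pearson correlation between arrays across tested genes, which are not independent, lay between 0.981 and 0.993.

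The members and lists were chosen with earlier results of these data known. The named genes are all 10 members, the first 3 genes of each list and those that make up any count up to 5. The first 3 were taken in the order the list was written, although the plan was to take them by level. The 3 E2F target genes highest by level and the genes flagged below are named as well. Alternatives were 4 other scalings, another background correction, no filter on dim probes, 2 other priors, the mean of a gene's probes, other detection rules, and leaving out each replicate.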

Additional observations from a re-analysis of the deposited data

Results flagged for a closer look

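Of 59 genes examined for an array far from the other 3, 6 were singled out because the gap to the nearest array took up more of the whole range than Dixon's 95% critical value allows. Chance alone does this for about 1 in 20 groups. None of the 10 G1 to S regulators was among them. Skp2 had a ratio of 0.921, with a level of -0.83 on replicate 1 and -4.40, -4.71 and -4.68 on the others, which are not well above background and have no order, so that its ratio rests in part on values at the floor. Ccnh had a ratio of 0.896, with 1.56 on replicate 3 against 1.25, 1.28 and 1.26 on replicates 1, 2 and 4. Pcna had a ratio of 0.895, with 4.31 on replicate 1 against 4.51 to 4.53. Cdkn1a had a ratio of 0.881, with 5.51 on replicate 1 against 5.74 to 5.77 for its brighter probe. The dimmer Cdkn1a probe was lowest on replicate 2, at -1.71, and not on replicate 1, at -1.45. Tfdp1 had a ratio of 0.861, with 1.57 on replicate 2 against 1.34 to 1.38. Skp1 had a ratio of 0.832, with 4.65 on replicate 4 against 4.87 to 4.91.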

How the results depend on the processing

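Under the alternatives run, 9 of the 10 regulators were well above background on all arrays, 0 passed the variance test and the median SD of those tested lay between 0.128 and 0.166. The number of all tested genes past the variance test was not stable. It was 69 as reported, 1 with quantile normalization, 0 with the 75th percentile over detected probes, 0 with that over all spots, 42 with cyclic loess, 237 with normexp background correction on median signals, 356 with dim probes left in, 207 with a robust prior and 0 with a prior without trend. At an unadjusted p under 0.05 (limma), the 3 counts of 0 were 719, 721 and 897. Leaving out 1 replicate gave counts from 27 to 164, with 27, 164 and 43 without replicates 2, 3 and 4. The cause was not tested. The number of regulators lowest on replicate 1 was 3 as reported, 1 with quantile normalization and 0 with normexp. Of the pathway list genes, 42 to 45 were detected on all arrays and 0 passed the variance test. The smallest adjusted p of a regulator over the alternatives was 0.594, for Ccnd2 without the filter. Scaling to detected probes or all spots shifted tested genes by a median of -3.52 or -2.36, and normexp by -0.41, so the sign of a level has no meaning of its own. The SD of single regulators moved by more than 1.5 times under some of these, such as 0.032 to 0.137 for Cdkn1b. The SD of Ccne1 minus E2f1 was 0.023 to 0.048. The normexp alternative was planned on mean signals and run on median signals, the column the files hold. It was chosen after seeing the data, as were the alternatives on profiles and on the Ccne1 minus E2f1 difference. No paired analysis was possible because the arrays form 1 group. With 4 arrays, a gene near background has only a bound.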
